A study of Sus scrofa with 3 samples.

Results

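ACTG2, TAGLN, TPM2, PLN, ANKRD1 and RGS5 are grouped here as 6 genes of smooth muscle and pericytes. Whether such cells give their signals here was not tested. The 6 are among 6765 gene symbols named on a porcine Affymetrix expression array. They were chosen by name, with their log2 ratios against sham on these arrays already known, so the ratios against sham given for them are a description and carry no test. The array reads them through 12 of its 23935 non-control probe sets, each annotated with a single gene. ACTG2, PLN and ANKRD1 have 2 probe sets each, TPM2 has 4, and TAGLN and RGS5 have 1 each.

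The samples were lung tissue of Sus scrofa minipigs kept free of specific pathogens. The operated lung is a left lung whose pulmonary artery was occluded and reopened while the bronchus was left alone, so that air kept entering it during ischemia and reperfusion. From the non-operated side of such an injury came a right lung, and a sham-operated animal gave the sham lung. Each of the 3 groups is 1 array. The sources used here do not give age, sex, the length of occlusion and reperfusion, or whether both lungs of the operation came from 1 animal. With 1 array a group, no difference below has a replicate check, and this number sets the limit of precision. In bulk tissue, fewer cells of a type and less RNA per cell cannot be told apart.

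Smooth muscle cells shorten when calcium in the cytosol activates myosin, which pulls on actin filaments that carry tropomyosin, calponin and transgelin. Actin and tropomyosin genes come in muscle and non-muscle forms. ACTG2 encodes the gamma smooth muscle actin best known from gut muscle, TAGLN the actin-binding protein transgelin, and TPM2 beta-tropomyosin. PLN encodes phospholamban, which restrains the calcium pump of the sarcoplasmic reticulum. ANKRD1 encodes a nuclear and sarcomeric ankyrin repeat protein that is induced by stretch and by the co-activator YAP. PLN and ANKRD1 are best known from heart muscle. RGS5, a marker of pericytes, the mural cells of small vessels, encodes a protein that shortens signalling through G-protein-coupled receptors and is not itself part of the contractile apparatus.

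Signals are deposited log2 values. The floor was the median of each array over non-control probe sets, 7.31 on the operated, 7.31 on the non-operated and 7.33 on the sham array. Signals that did not exceed it were raised to it, which makes the ratio a bound. A comparison takes in every gene with a signal over the floor on either of its 2 arrays. A gene is called higher or lower when its log2 ratio reached 1 in size, which is 2-fold. Of the 12 probe sets, 10 exceeded the floor on the operated, 9 on the non-operated and 6 on the sham array. On all 3 arrays 5 did, and 1 probe set of TPM2 did on none. A gene with more than 1 probe set is represented by its brightest, by the mean over the 3 arrays.

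In both lungs after ischemia-reperfusion, the filament genes ACTG2, TAGLN and TPM2, the calcium regulator PLN and the stretch-responsive ANKRD1 had higher signals than in sham, and the pericyte gene RGS5 had a lower one. The 5 were at least 2-fold higher in the operated lung, which is 5 of 6 members, where 8.65% of the 5097 genes compared were that much higher. RGS5 was the 1 member at least 2-fold lower, where 8.79% of genes were. The same 5 genes were higher and the same 1 lower in the non-operated lung, where 8.96% of 5113 genes were higher and 8.55% lower. The choice of members used these ratios, so nothing is read from the counts. In the operated lung the median log2 ratio of the 6 members was 1.61, with bounds at their bound, and that of all genes compared was -0.11. In the non-operated lung the medians were 1.66 for the members and -0.10 for all genes. Both comparisons use the same sham array, so they are not independent of each other.

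**Figure D1:**
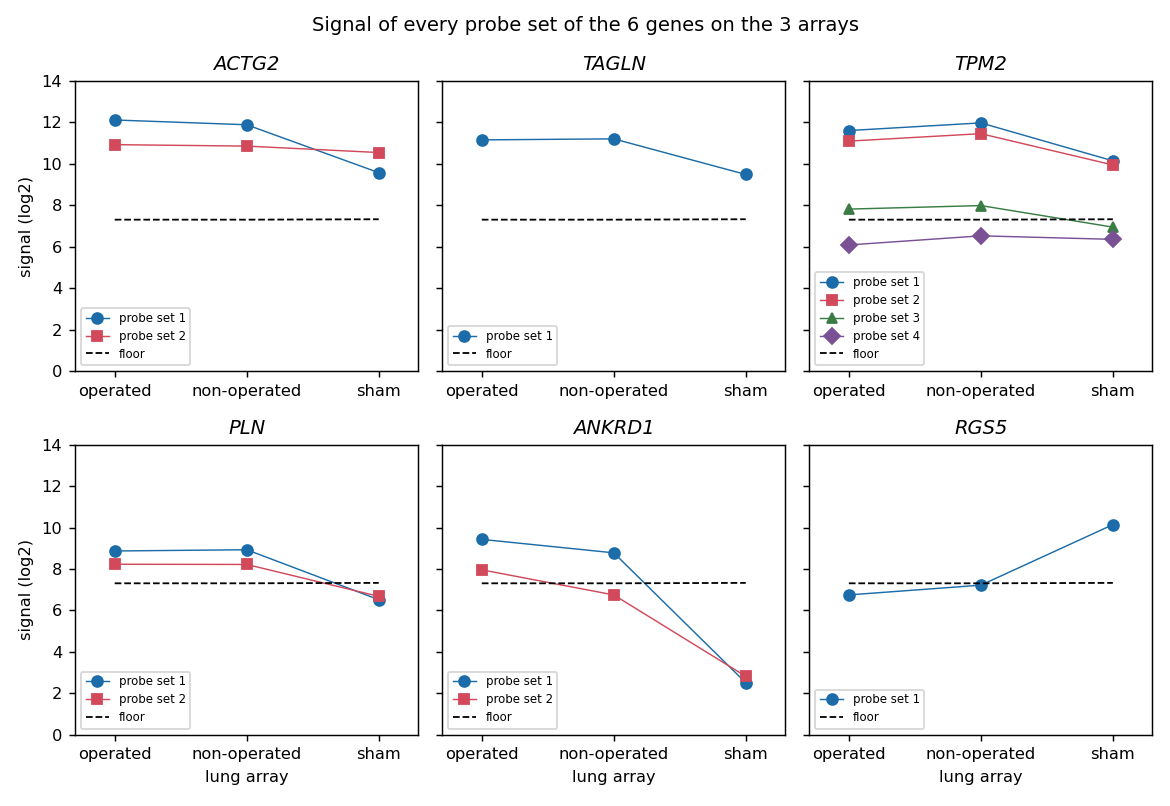
Signal on the log2 scale (vertical axis) of each of the 12 probe sets of the 6 genes on the operated, non-operated and sham array (horizontal axis), 1 panel per gene, with the floor as a dashed line. Each point is 1 probe set on 1 array, and probe sets are numbered by falling mean signal. ACTG2, TAGLN, TPM2, PLN and ANKRD1 had their lowest point on the sham array in every probe set but the dimmest one of TPM2, and RGS5 had its highest point there.

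Among the filament proteins, ACTG2 had the largest measured ratio. Its brighter probe set read 12.12 on the operated, 11.89 on the non-operated and 9.58 on the sham array. ACTG2 was thus 5.81-fold above sham in the operated lung, a log2 ratio of 2.54, and 4.96-fold above sham in the non-operated lung, a log2 ratio of 2.31. Where both arrays exceeded the floor, this ratio was the 17th highest of 4555 genes in the operated and the 36th highest of 4559 in the non-operated lung. The other probe set that the platform annotation gives to ACTG2 did not show a difference of that size. It read 10.93 on the operated, 10.86 on the non-operated and 10.55 on the sham array, log2 ratios against sham of 0.38 in the operated and 0.31 in the non-operated lung.

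Probe sets of 1 gene rarely lay so far apart. Over 801 genes with several probe sets measured on both the operated and the sham array, the median distance between a gene's highest and lowest log2 ratio was 0.35. For ACTG2 it was 2.16, and 0.6% of those genes had a distance as large. Which probe set follows the ACTG2 transcript was not tested. The mean of both gave a log2 ratio of 1.46 in the operated and 1.31 in the non-operated lung.

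TAGLN, read by 1 probe set, was at 11.16 on the operated, 11.21 on the non-operated and 9.49 on the sham array. Both lungs of the operation were close together, 3.19-fold above sham in the operated and 3.28-fold in the non-operated lung. With a single probe set there is no internal check of this value.

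TPM2 had its brightest probe set at 11.61 on the operated, 11.98 on the non-operated and 10.15 on the sham array. It was 2.76-fold above sham in the operated lung, a log2 ratio of 1.47, and 3.56-fold in the non-operated lung, a log2 ratio of 1.83. The next probe set read 11.10 on the operated, 11.46 on the non-operated and 9.95 on the sham array, with a log2 ratio of 1.14 in the operated and 1.51 in the non-operated lung. The pair differed by 0.32 in each comparison with sham, near the median of 0.35 for genes with several probe sets. A dimmer probe set was at 7.82 on the operated and 7.99 on the non-operated array and under the floor in sham at 6.95, at least 1.41-fold higher in the operated and 1.59-fold in the non-operated lung. The remaining one was under the floor on every array, at 6.09 on the operated, 6.53 on the non-operated and 6.36 on the sham array, and gives no ratio. Averaging all 4 probe sets gave a log2 ratio of 0.80 in the operated lung, under 2-fold, and 1.14 in the non-operated lung.

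The calcium regulator PLN exceeded the floor in both lungs of the operation and not in sham. Its brighter probe set read 8.87 on the operated, 8.93 on the non-operated and 6.52 on the sham array, at least 2.92-fold above sham in the operated and 3.04-fold in the non-operated lung. The dimmer one read 8.23 on the operated, 8.22 on the non-operated and 6.68 on the sham array, at least 1.87-fold above sham in the operated and 1.86-fold in the non-operated lung. Both are listed with the RefSeq transcript and placed the 3 arrays alike, but the bound of the dimmer one lies under 2-fold.

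ANKRD1, the stretch-responsive gene, was far under the floor in sham. Its brighter probe set was at 9.43 on the operated, 8.78 on the non-operated and 2.51 on the sham array, at least 4.29-fold above sham in the operated and 2.74-fold in the non-operated lung. Its other probe set was at 7.96 on the operated array and under the floor on the others, at 6.75 on the non-operated and 2.82 on the sham array. That gives at least 1.55-fold for the operated over the sham lung and no ratio for the non-operated over the sham lung. Without a floor, the deposited values of the brighter probe set differ from sham by 6.92 in the operated and 6.27 in the non-operated lung on the log2 scale. Signals that far under the floor have no order, so these differences are not used as fold changes.

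RGS5 was the exception in direction. Its 1 probe set, listed with the RefSeq transcript, read 6.75 on the operated, 7.22 on the non-operated and 10.14 on the sham array. It was well over the floor in sham and under it in both lungs of the operation, at least 7.11-fold lower in each. Since both of those values are under the floor, no order is given between the operated and the non-operated lung.

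**Figure D2:**
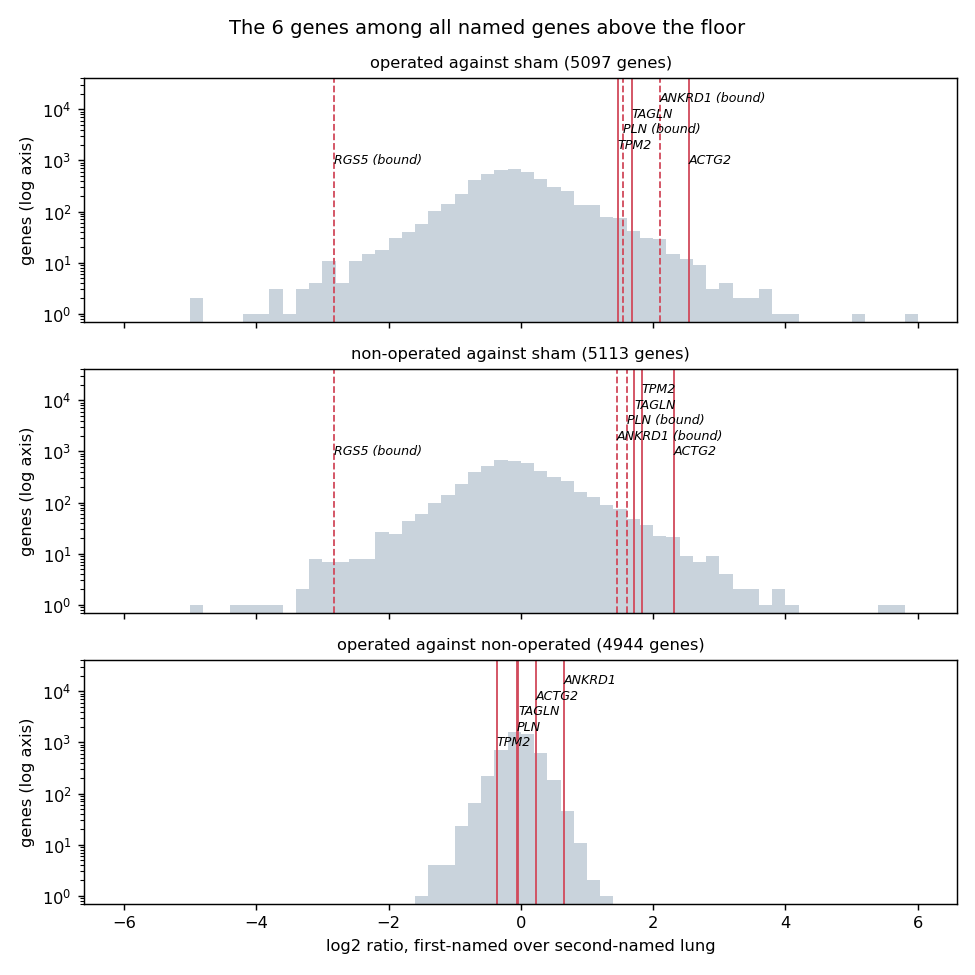
Histograms of log2 ratios (horizontal axis) of all named genes that exceeded the floor on at least 1 of the 2 arrays, with the number of genes on a log axis (vertical), for operated against sham, non-operated against sham and operated against non-operated lung. Red lines mark the members, dashed where the ratio is a bound. Against sham, 5 members lie between 1.45 and 2.54 and RGS5 at -2.83, whereas between the lungs of the operation the 5 members that could be compared lie between -0.36 and 0.65.

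Between the operated and the non-operated lung, 0 of the 5 members compared were at least 2-fold higher and 0 were lower. Of all 4944 genes compared, 0.0607% were that much higher in the operated lung and 0.182% lower. ANKRD1 had the largest difference of the 5, with a log2 ratio of 0.65, or 1.57-fold higher in the operated lung, the 39th highest of 4698 genes measured on both arrays. The second ANKRD1 probe set was at least 1.57-fold higher as well. ACTG2 was at 0.23, TAGLN at -0.04 and PLN at -0.06. TPM2 was at -0.36 in each of its 2 brightest probe sets, lower in the operated lung. The middle 95% of those 4698 genes lay between -0.55 and 0.49, and ANKRD1 was the 1 member outside that range. These differences follow from the ratios against sham known when the members were chosen, so they too are a description. The operated lung was a left and the non-operated a right lung, so operation and side cannot be told apart.

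Relatives of the filament genes differed from sham by unequal amounts. ACTA2, the alpha smooth muscle actin of vessels, read 13.59 on the operated, 13.88 on the non-operated and 12.95 on the sham array. Its log2 ratio of 0.64 in the operated and 0.93 in the non-operated lung was short of 2-fold and under that of the brighter ACTG2 probe set. ACTB, a cytoplasmic actin that nearly all cells make, was at -0.07 in the operated and 0.08 in the non-operated lung, and both signs turned in its second probe set, the first also with the scaling. ACTG1, the other cytoplasmic actin, was at -0.01 in the operated lung, a sign that turned in a second probe set and with the scaling, and at 0.01 in the non-operated lung. The cardiac actin ACTC1 was under the floor on all 3 arrays.

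Among tropomyosins, TPM1 was close to TPM2, with a log2 ratio of 1.35 in the operated and 1.49 in the non-operated lung at its brightest probe set. A further TPM1 probe set gave 1.49 in the operated and 1.68 in the non-operated lung, and the last one exceeded the floor by a small margin on the operated array alone. TPM4 was at 0.41 in the operated and 0.36 in the non-operated lung. TPM3, a form of many cell types, was at -0.35 in the operated and -0.21 in the non-operated lung. TAGLN2, a transgelin made in many cells, was at 0.23 in the operated and 0.72 in the non-operated lung, under the ratios of TAGLN, and TAGLN3 was under the floor throughout. CNN1, the smooth muscle calponin, read 9.02 on the operated, 8.74 on the non-operated and 6.97 on the sham array, at least 3.23-fold higher in the operated and 2.66-fold in the non-operated lung. Of the other calponins, CNN3 was at 0.52 in the operated and 0.26 in the non-operated lung. CNN2 was at -0.96 in the operated and -0.95 in the non-operated lung.

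**Figure D3:**
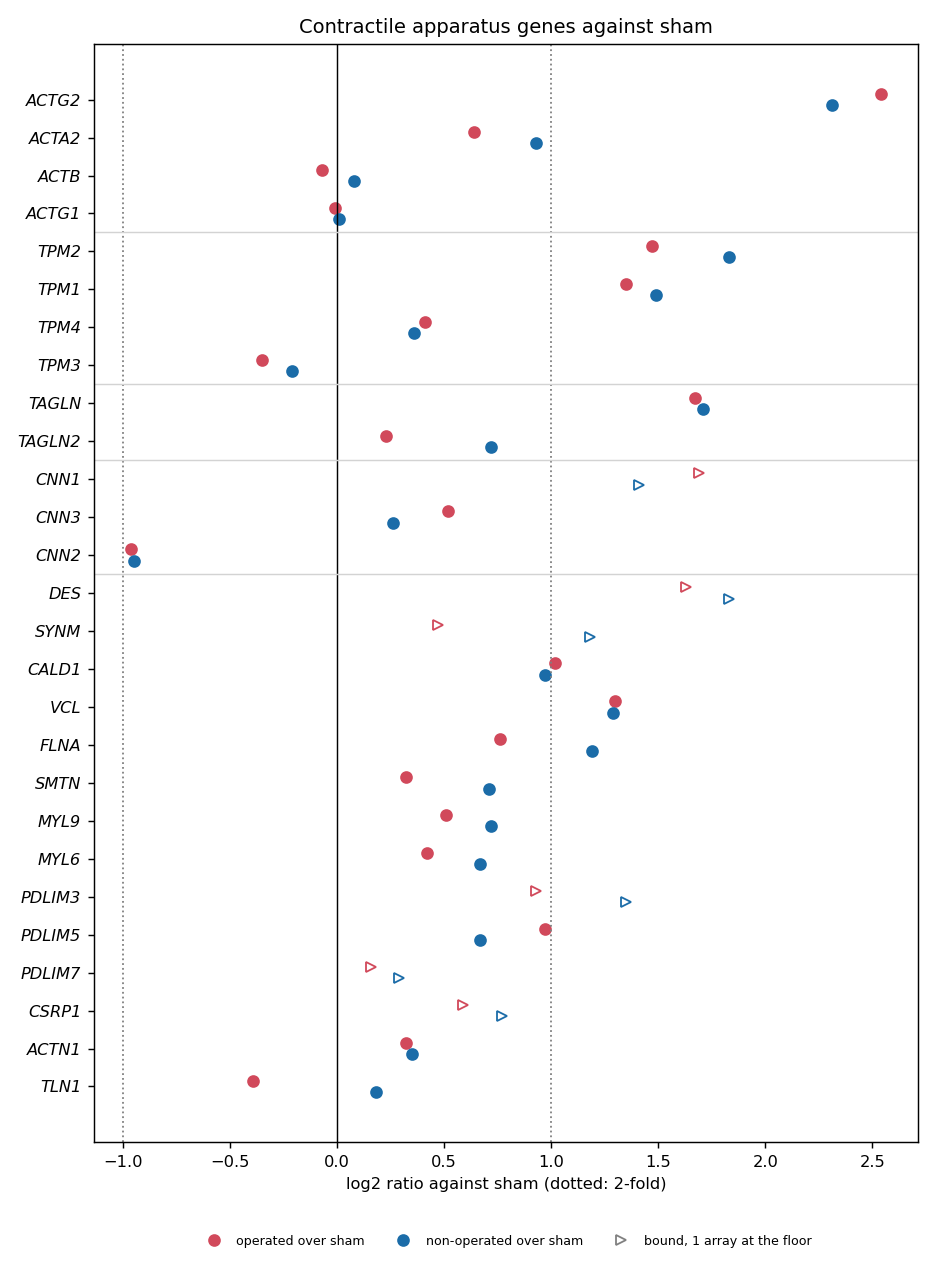
Log2 ratio against sham (horizontal axis) of ACTG2, TAGLN, TPM2 and other genes of the contractile apparatus (rows) in the operated (red) and non-operated lung (blue), by the brightest probe set of each gene. Open triangles are bounds and dotted lines mark 2-fold. Grey lines part the actins, tropomyosins, transgelins, calponins and other genes, and ACTG2, TPM2, TAGLN and CNN1 are the highest drawn of their families.

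A wider list of contractile apparatus genes of smooth muscle had 24 genes that could be compared with sham, ACTG2, TAGLN and TPM2 among them. Without these, 5 of 21 genes were at least 2-fold higher in the operated lung, or 23.8%, and 7 of 21 in the non-operated lung, or 33.3%. In either lung 0 of the 21 were at least 2-fold lower. Over all genes compared, 8.65% were higher and 8.79% lower in the operated lung, and 8.96% higher and 8.55% lower in the non-operated lung. These shares also stand behind the counts of the lists below. The lists were chosen with earlier results of these data known. Their counts are therefore a description, carry no test and give no independent support for the members. The median log2 ratio of the 21 genes was 0.52 in the operated and 0.72 in the non-operated lung. Besides TPM1 and CNN1, DES, the muscle intermediate filament desmin, was higher at no less than 1.63 in the operated and 1.83 in the non-operated lung. VCL, the filament anchor vinculin, was at 1.30 in the operated and 1.29 in the non-operated lung. CALD1, the actin-binding caldesmon, lay at the edge of 2-fold, with 1.02 in the operated and 0.97 in the non-operated lung.

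Some genes of that list counted as 2-fold higher in the non-operated lung alone, a difference that was not tested. FLNA, a cross-linker of actin filaments, was at 0.76 in the operated and 1.19 in the non-operated lung. SYNM, an intermediate filament gene, was at no less than 0.47 in the operated and 1.18 in the non-operated lung, and PDLIM3 at no less than 0.93 in the operated and 1.35 in the non-operated lung. For these genes a bound under 2-fold does not settle whether the operated lung passed it. The myosin light chain MYL9 was at 0.51 in the operated and 0.72 in the non-operated lung. MYLK, the kinase that switches on smooth muscle myosin, was under the floor on all 3 arrays.

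In the list of calcium handling genes, PLN was the 1 gene of 10 that reached 2-fold in either lung. That is 10% of the list, near the 8.65% of all genes higher in the operated and 8.96% in the non-operated lung. Without the member PLN, 0 of 9 genes were at least 2-fold higher and 0 lower in either lung, by their brightest probe sets. CALM3 was at 0.41 in the operated lung by its brightest probe set, and a dimmer one gave -1.52. ATP2A2, the pump that phospholamban acts on, was at 0.62 in the operated and 0.57 in the non-operated lung. SLN, which encodes sarcolipin, another small inhibitor of calcium pumps, was under the floor on all 3 arrays. In the list of contraction and relaxation signals, 1 of 11 genes was higher and 1 lower in the operated lung, and 1 of 12 higher and 1 lower in the non-operated lung. That is 9.09% each way in the operated and 8.33% in the non-operated lung, near the shares over all genes. Nothing is read from these counts. GUCY1B3, a subunit of the nitric oxide receptor guanylate cyclase, was at 1.34 in the operated and 1.27 in the non-operated lung. A dimmer GUCY1B3 probe set gave 0.53 in the operated lung, under 2-fold. PDE4B, a phosphodiesterase that breaks down cyclic AMP, was at -1.04 in the operated and -1.25 in the non-operated lung.

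Of 7 transcription regulators of smooth muscle, 2 were at least 2-fold higher in the operated and 3 in the non-operated lung. Over all genes, 8.65% were in the operated and 8.96% in the non-operated lung. GATA6 was at 1.53 in the operated and 1.33 in the non-operated lung. KLF4, which represses smooth muscle genes, was at 1.18 in the operated and 1.92 in the non-operated lung, and the muscle LIM gene FHL1 at 0.74 in the operated and 1.08 in the non-operated lung. MYOCD, the co-activator myocardin, was under the floor on all 3 arrays.

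Other genes of a list of stretch and YAP responses stood on the same side as ANKRD1. Without ANKRD1, 5 of 7 genes were at least 2-fold higher in each lung and 0 were lower, with a median of 1.27 in the operated and 1.41 in the non-operated lung. Of all genes, 8.65% were higher in the operated and 8.96% in the non-operated lung. CYR61, a matricellular YAP target, was at 2.28 in the operated and 2.29 in the non-operated lung, and CRIM1 was at 1.53 in the operated and 1.72 in the non-operated lung. TEAD4, a DNA-binding partner of YAP, was at 1.33 in the operated and 1.41 in the non-operated lung. AMOTL1, an angiomotin that binds YAP, was at 1.27 in the operated and 1.61 in the non-operated lung. The fifth gene differed between the lungs. It was F3, the tissue factor gene, in the operated lung, at 1.01 there, 0.98 under another scaling and 0.37 in the non-operated lung. In the non-operated lung it was LATS2, a kinase that inhibits YAP, at 0.91 in the operated and 1.12 in the non-operated lung. A dimmer LATS2 probe set gave 0.11 in the operated lung.

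Most listed genes of heart and skeletal muscle were under the floor, although PLN and ANKRD1 are known from heart. Of 24 striated muscle genes on the array, 20 were under the floor on all 3 arrays, among them MYH7, TNNT2, NPPA, CKM and MYL2. Of the other 4, PLN and ANKRD1 are members. The troponin gene TNNI2 was at no less than 0.54 in the operated and 0.64 in the non-operated lung. TNNI3, another troponin gene, exceeded the floor on all 3 arrays. It read 7.51 on the operated, 7.98 on the non-operated and 7.47 on the sham array, with ratios of 0.04 in the operated and 0.51 in the non-operated lung.

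RGS5 lay on the other side of sham from most genes of the pericyte and mural cell list. Without RGS5, 4 of 8 genes were at least 2-fold higher in each lung and 0 were lower, with a median of 1.17 in the operated and 1.05 in the non-operated lung. The share of all genes that were higher was 8.65% in the operated and 8.96% in the non-operated lung. AGTR1, the angiotensin II receptor, was at 3.14 in the operated and 3.02 in the non-operated lung. The adhesion molecule MCAM was at 1.74 in the operated and 2.32 in the non-operated lung, and HIGD1B, known from pericytes, at 1.72 in the operated and 1.58 in the non-operated lung. GJA4, a gap junction gene of mural cells and arterial endothelium, was at 1.44 in the operated and 1.86 in the non-operated lung. PDGFRB, the growth factor receptor of pericytes and fibroblasts, read 11.04 on the operated, 10.96 on the non-operated and 10.68 on the sham array, short of 2-fold at 0.37 in the operated and 0.28 in the non-operated lung. KCNJ8, a potassium channel subunit of pericytes, was at no less than 0.15 in the operated and 0.52 in the non-operated lung.

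Of the 6 other RGS genes that could be compared, 3 lay 2-fold or more under sham in the operated and 2 in the non-operated lung, and 0 lay that far over it. Over all genes, 8.79% were that much lower in the operated and 8.55% in the non-operated lung. RGS4, which like RGS5 restrains Gq and Gi signals, read 8.64 on the operated, 8.98 on the non-operated and 10.89 on the sham array. Its log2 ratio was -2.24 in the operated and -1.91 in the non-operated lung. RGS18 of platelets and leukocytes was at least 2.54-fold lower in each lung. RGS1, known from lymphocytes, was at -1.07 in the operated and -0.80 in the non-operated lung. RGS2, known to limit smooth muscle contraction, was at -0.10 in the operated and 0.37 in the non-operated lung. RGS14 was at -0.65 in the operated and -0.33 in the non-operated lung, and RGS10 at 0.10 in the operated and -0.10 in the non-operated lung.

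**Figure D4:**
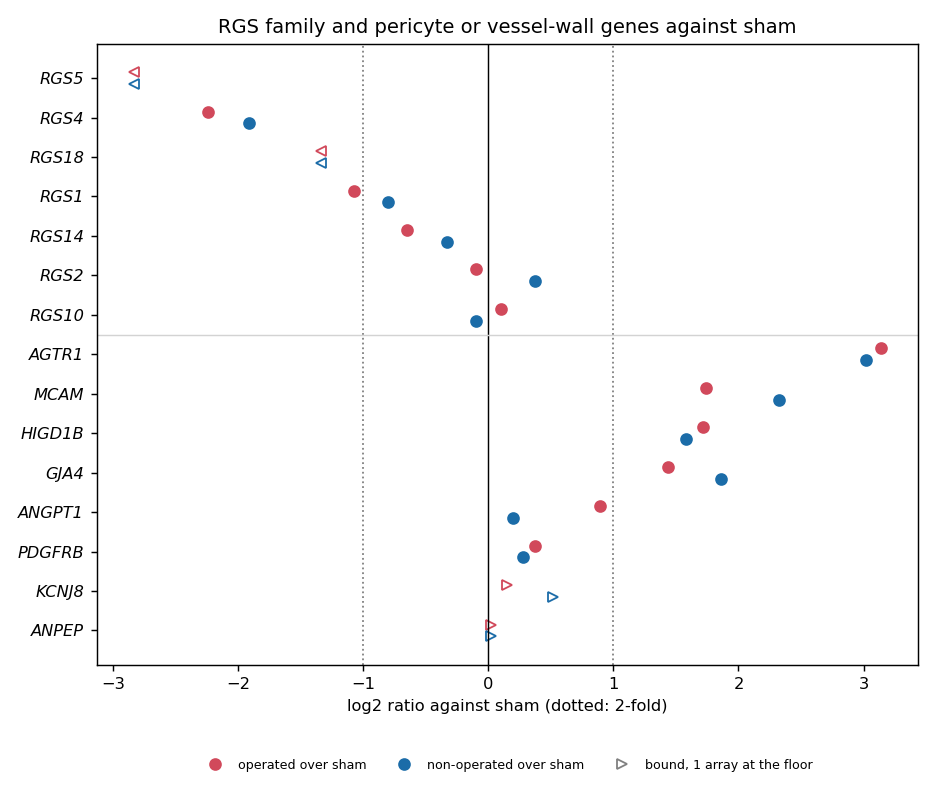
Log2 ratio against sham (horizontal axis) of RGS family genes (upper rows) and pericyte or vessel-wall genes (lower rows) in the operated (red) and non-operated lung (blue). Open triangles are bounds and dotted lines mark 2-fold. RGS5 and RGS4 lie farthest to the lower side, and AGTR1, MCAM, HIGD1B and GJA4 lie beyond 2-fold on the higher side in both lungs.

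Endothelial and alveolar type 1 markers that could be compared stood on the same side as the 5 higher members. KDR, TIE1 and FLT1, 3 of 15 endothelial genes on the array, were under the floor on all 3 arrays and gave no ratio. Over all genes, 8.65% were at least 2-fold higher in the operated and 8.96% in the non-operated lung. Of 12 endothelial genes compared, 11 were at least 2-fold higher in the operated and 10 in the non-operated lung, with a median of 1.49 in the operated and 1.52 in the non-operated lung. The summed linear signal of the endothelial list was 45371 in the operated, 47508 in the non-operated and 16802 in the sham lung. Of 6 alveolar type 1 genes, 4 were higher in the operated and 5 in the non-operated lung, and they summed to 34755 in the operated, 34379 in the non-operated and 12484 in the sham lung. CAV1 belongs to both lists and was the brightest gene of each, so it weighs heavily in both sums. It read 14.04 on the operated, 13.99 on the non-operated and 12.81 on the sham array. The contractile apparatus list, members included, summed to 88977 in the operated, 94913 in the non-operated and 55253 in the sham lung. Bright genes such as ACTA2, VCL and TPM3 weigh heavily in that sum, and TPM3 is a form of many cell types. The sum is therefore no measure of smooth muscle alone.

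Of 10 fibroblast genes, 0 were at least 2-fold higher and 2 lower in the operated lung, and 1 was higher and 0 lower in the non-operated lung. Over all genes, 8.65% were higher and 8.79% lower in the operated lung, and 8.96% higher and 8.55% lower in the non-operated lung. The fibroblast genes summed to 25650 in the operated, 29847 in the non-operated and 25808 in the sham lung. LUM, which encodes the matrix proteoglycan lumican, was at -1.24 in the operated and -0.75 in the non-operated lung, and FBLN1, the matrix gene fibulin, at -1.20 in the operated and -0.67 in the non-operated lung. MFAP5, a microfibril gene, was at 0.78 in the operated and 1.61 in the non-operated lung. In the airway epithelial list, BPIFA1 was under the floor on all 3 arrays. The 5 genes compared were TFF3, KRT8, KRT18, EPCAM and CDH1. Whether they read airway cells here was not tested. Of these, 1 was higher in the operated and 0 in the non-operated lung, and 0 were lower in either. The list summed to 13554 in the operated, 12218 in the non-operated and 9124 in the sham lung. Of 5 alveolar type 2 genes, 2 were higher in the operated and 0 in the non-operated lung, and 0 were lower in either. They summed to 46606 in the operated, 43816 in the non-operated and 35609 in the sham lung. Of 3 mesothelial genes on the array, WT1 and CALB2 were under the floor on all 3 arrays. KRT19 exceeded it on each, at 8.79 on the operated, 8.65 on the non-operated and 9.28 on the sham array. SFTPC, which defines alveolar type 2 cells, read 14.52 on the operated, 14.56 on the non-operated and 14.44 on the sham array, which fits the lung label. The part of cell makeup in the members' ratios was not tested.

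The genes most like a member were those with the smallest distance between their log2 ratios of both lungs against sham, over 3 arrays. They came from genes that exceeded the floor on the same arrays as the member, 4385 for ACTG2, TAGLN and TPM2. For ACTG2 they were the macrophage genes VSIG4 and MRC1 and the alveolar type 1 gene HOPX, at distances of 0.07, 0.13 and 0.14. These hold for the brighter ACTG2 probe set alone, since the other had ratios of 0.38 in the operated and 0.31 in the non-operated lung. For TAGLN they were S100A12, SLC31A2 and IFIT1, at distances of 0.05, 0.06 and 0.06. For TPM2 they were GJA4, ETS2 and PDXK, at distances of 0.04, 0.05 and 0.07. No list is given for PLN, ANKRD1 and RGS5, whose ratios against sham are bounds set by the floor and so measure no likeness.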

How the data were processed

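Per the submitters' processing notes, the deposited values come from MAS5, the Affymetrix method that gives each probe set 1 signal per array. The deposited values are on the log2 scale, as their range of 0 to 14.92 shows, and the mean linear signal after trimming 2% at each end was between 494.9 and 495.8 on the 3 arrays. The MAS5 version, its scaling target and detection calls were not given. No further scaling was applied. Gene names came from the platform annotation, which gives 1 gene to 10069 probe sets, several to 198 and none to 13668. The gene identifiers of all 6 members matched RefSeq's table of Sscrofa11.1. Ratios were computed in Python 3.11.15 with pandas 2.3.3. The steps were tested on simulated data in which the changed genes lay far over the floor, so bounds were not covered. The pooled SD of log2 ratios between probe sets of 1 gene was 0.39 for the operated and 0.41 for the non-operated lung against sham, and 0.22 between the lungs of the operation. This spread covers probe sets, not animals.

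The members and the gene lists were chosen with earlier results of these data known. Named genes are all members, the genes beyond 2-fold in either lung in each list (at most 5 a list), relatives in the actin, tropomyosin, transgelin, calponin and RGS families, and the 3 genes most like each member, passing over symbols that are only locus numbers. Named outside this rule, after their values were seen, were VCL, CALD1, FLNA, SYNM, PDLIM3, MYL9, MYLK, ATP2A2, SLN, MYOCD, PDGFRB, KCNJ8, F3, LATS2, TNNI2, TNNI3, SFTPC and the marker genes under the floor. So were CALM3, KRT19, KRT8, KRT18, EPCAM and CDH1. Of the endothelial, alveolar and airway lists, the rule's genes other than CAV1, HOPX and TFF3 are given as counts. The genes most like PLN, ANKRD1 and RGS5 are left out because the ratios of these members are bounds. The alternatives were other floors, a pseudocount of 50, other scalings and the mean of all probe sets.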

Additional observations from a re-analysis of the deposited data

How the results depend on the processing

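Under 5 of 7 alternatives, 5 members were at least 2-fold higher and 1 lower in each lung against sham. Averaging all probe sets of a gene left 4 higher in each lung, since TPM2 was at 0.80 in the operated and ANKRD1 at 0.44 in the non-operated lung. With the floor at the 75th percentile of each array, 3 members were higher and 0 lower in either lung. RGS5 was then at -0.92 in both lungs and ANKRD1 at 0.18 in the operated lung, and PLN in both lungs and ANKRD1 in the non-operated lung gave no value. The members' median log2 ratio in the operated lung was 2.01 without a floor and 2.01 at the 25th percentile, and in the non-operated lung 2.07 without a floor, 2.07 at the 25th percentile and 1.19 when probe sets were averaged. Of 115 member ratios under the alternatives, 92 moved by less than the spread between probe sets of 1 gene, 23 by more and 0 reversed. A ratio under 2-fold at the median floor could not count as reversed. Other floors could not move the ratios of ACTG2, TAGLN and TPM2, whose brightest probe sets exceeded every floor used. Much of this tally was thus fixed in advance, and it does not measure how robust the ratios are. TAGLN, with 1 probe set that lay over every floor, could be moved only by the pseudocount and the scalings. It ran between 1.61 and 1.69 in the operated lung, whereas ANKRD1, which rests on the floor, ran between 0.18 and 6.92. Between the lungs of the operation 0 members reached 2-fold under any of the 7. Signals near or under the floor limit PLN, ANKRD1 and RGS5 most. No paired analysis was possible because each group is 1 array.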
